A study of Mus musculus with 12 samples.

Results

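Bulk RNAseq of memory B cells (MemB) from the peritoneal cavity (PerC) of Gpr34 knock-in (KI) and control mice was compared across all genes. The comparison holds 6 of the 12 libraries of the series, 3 from KI MemB and 3 from control MemB, and they were chosen by their labels alone. The other 6 are KI and control B2, the conventional B cells of the same cavity, again 3 of each. KI mice carry Cd21-Cre and a conditional allele in the Rosa26 locus that, once Cre has removed a stop cassette, drives GFP and a GPR34 whose truncation makes it gain-of-function. Control mice are labelled only as Control, and the labels give neither their alleles nor the age of any mouse. The study's methods give 1 adult age range for its mice and describe groups matched for age and sex, with no age for single libraries. They also state that mice shared cages with littermates, without saying that the controls were littermates of the KI mice. MemB were sorted as negative, and B2 as positive, for both IgD and IgM. Cd21-Cre acts from the mature B cell stage and is also active in follicular dendritic cells. The labels give a sort on IgD and IgM and none on GFP, so KI MemB may hold cells that do not express the allele. Libraries are written below as control 1 to control 3 and KI 1 to KI 3 by the replicate number of their label, and all are MemB unless B2 is named.

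GPR34 is a G protein-coupled receptor for lysophosphatidylserine, a lipid released when phospholipases act on phosphatidylserine. MemB have met antigen, most have switched from IgM and IgD to another immunoglobulin class, and they answer a second encounter faster than naive B cells do. The PerC is also the main home of B-1 cells, a self-renewing lineage that makes natural antibodies from a restricted set of V genes and lives beside the conventional B2. Integrins and other adhesion molecules govern how lymphocytes enter and leave this cavity, while kinases, phosphatases and inhibitory receptors set how strongly the B cell receptor (BCR) signals.

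Totals lay between 30935837 and 37629279 counts in the 6 MemB libraries. Ribosomal RNA genes took 29.9% to 34.5% of them. Values are given as CPM, that is counts scaled to the TMM-corrected size of the library, and differences as log2 fold changes of KI over control with their standard error (SE). The biological coefficient of variation over all 12 libraries was 91.3%, so replicates of a group differed widely. The summed level of 8 B cell markers was 4238 to 4553 CPM in control and 4186 to 4629 CPM in KI. In replicate 3 of each of the 4 groups Xist stood apart from replicates 1 and 2, so each group holds mice of both sexes in the same proportion. In bulk samples such as these, fewer cells of a type and less RNA per cell cannot be told apart.

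Between KI and control MemB, 42 of the 14933 genes tested were called (0.281%), 12 higher in KI (0.0804%) and 30 lower (0.201%), in edgeR's quasi-likelihood test, with p-values adjusted over all genes tested. A call required that the adjusted p be under 0.05 and that the log2 fold change lie outside the range from -1 to 1. KI and control libraries did not overlap for 41 of the 42 called genes, a pattern that 12.1% of all genes tested showed. An unadjusted p below 0.05 was found for 1651 genes (11.1%), 720 higher in KI and 931 lower. Of the 42, only Hmgcs1 was on the S and G2/M or the cholesterol synthesis list, and 19 were on at least 1 of the 15 other pathway lists, spread over all of these lists except BCR and coreceptor signalling. A further 4 genes had an adjusted p below 0.05 with a smaller fold change, namely Ezr (log2 fold change 0.84), Zbtb20 (-0.95), Malat1 (-0.56) and Gm37376 (-0.81). Gm37376 lies wholly inside Malat1, on the other strand, and the counting is not stated to use strand, so these 2 may not be separate. With single libraries left out, 6 of the 42 passed every time (Gpr34, Hmgcs1, Ighm, Ighd, Ighv11-2 and Dnase1l3). The number called fell to 7 higher and 8 lower without KI 1, to 3 and 15 without control 2, to 7 and 18 without KI 3, and to 8 and 17 without control 1. A fit of the 6 MemB libraries alone called 5 higher and 7 lower, 12 of the 42, and a fit that was not robust called 6 and 15, 21 of the 42. DESeq2's Wald test called 471 genes (3.15%), among them all 42 with the same sign. Where DESeq2 is not named, a gene is said to be called or to pass by edgeR's test, and a gene that did not pass there can be among the 471.

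**Figure D1:**
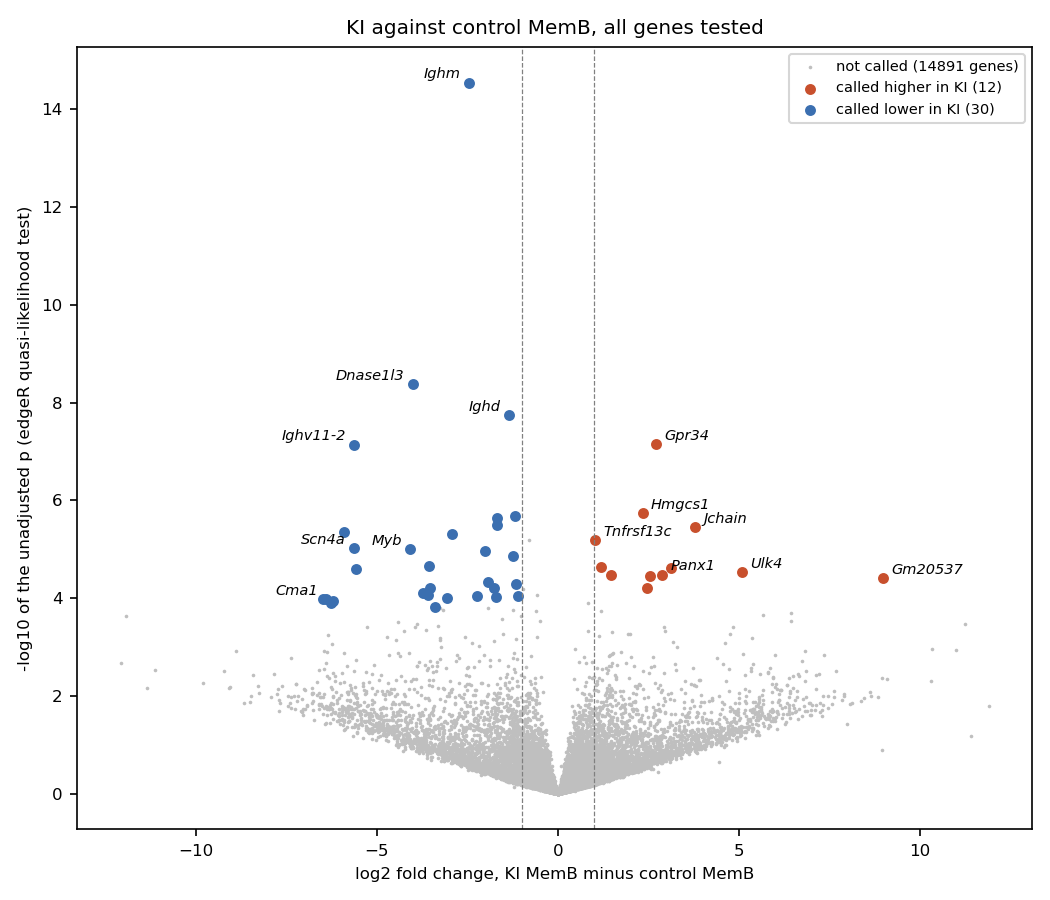
Each point is 1 of the 14933 genes tested, with its log2 fold change in KI over control MemB (horizontal) and the negative log10 of its unadjusted p (vertical), and dashed lines mark log2 fold changes of -1 and 1. The 30 called genes on the left reach further up than the 12 on the right, with Ighm at the top.

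**Figure D2:**
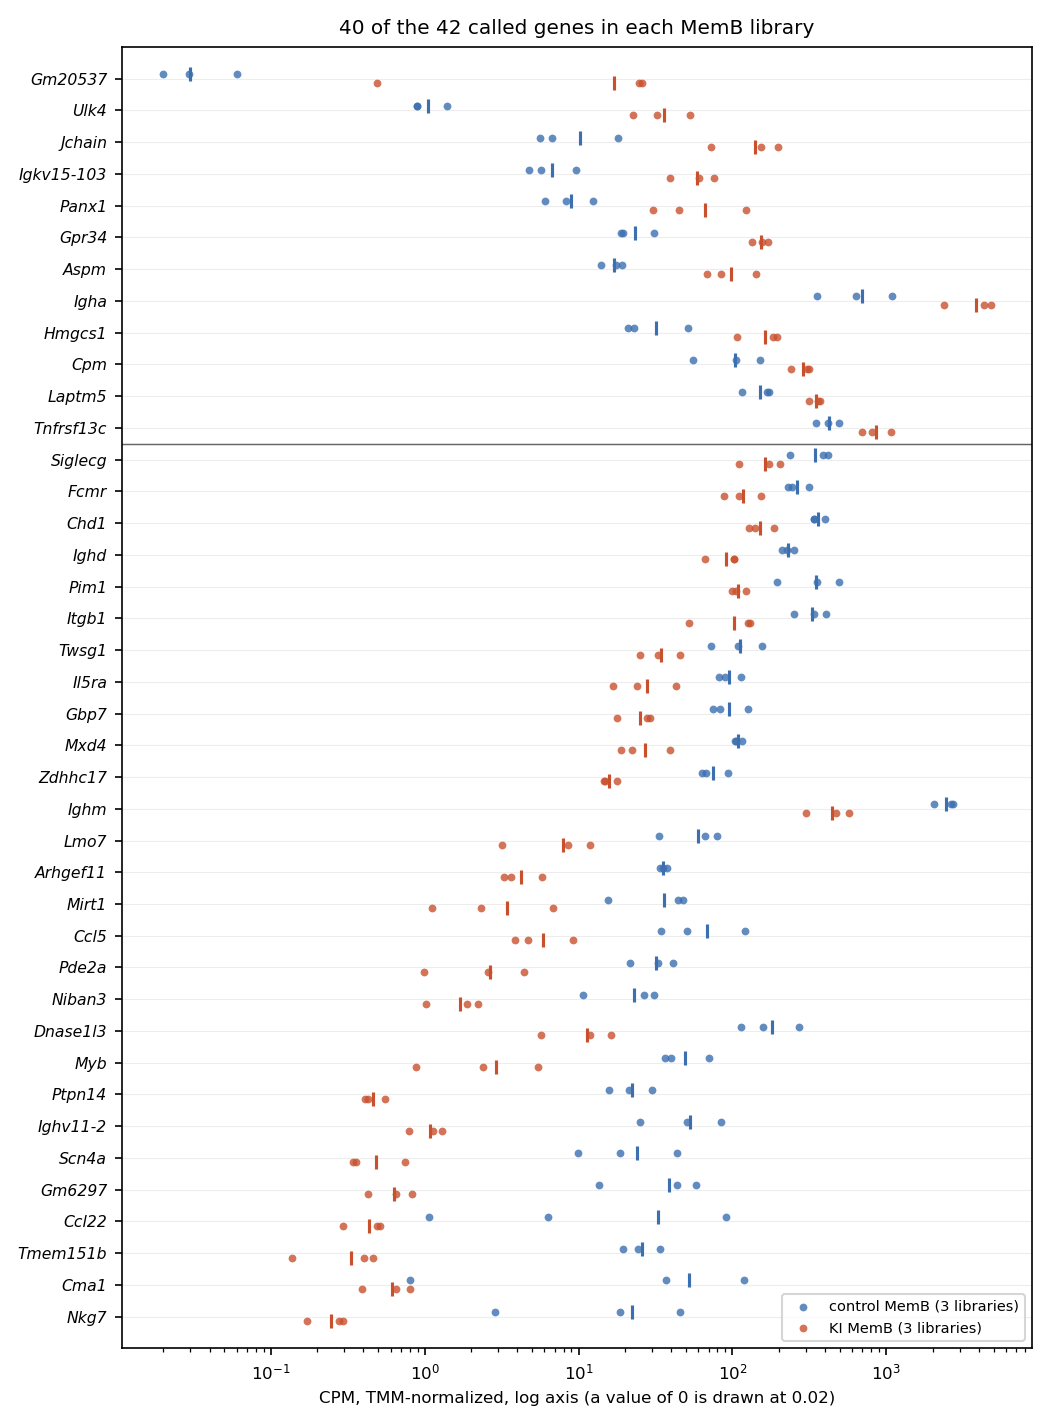
TMM-normalized CPM on a log axis of 40 of the 42 called genes in the 3 control (blue) and 3 KI (orange) MemB libraries, each dot a library and each bar a group mean, ordered by log2 fold change. Blue and orange dots overlap for Cma1 and are apart for the other 39.

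Gpr34, at chrX:13489625-13507116 within the Cask gene (GRCm39), checks the genotype. It was at 18.9, 19.6 and 31.04 CPM in control and 133, 169.5 and 156 CPM in KI (log2 fold change 2.72, SE 0.39, adjusted p = 0.000215). Every KI library was above every control library, and the call passed in all 12 fits that left out 1 library. Reads of the gene's own transcript and of the KI allele are not separated in these counts. Among the 34 migration receptors tested, Gpr34 was the only call by edgeR, and 6 members were higher and 5 lower at an unadjusted p below 0.05. Members with such a p made up 32.4% of the list, beside 11.1% of all genes tested. Summed markers of T cells (122.6 to 334 CPM in control and 5.66 to 60.4 CPM in KI) and of NK cells (22.8 to 84.7 and 1.05 to 7.37 CPM) were also lower in KI. Their part in this count was not tested. Ccr6, the receptor for CCL20, was at 17.3, 23.3 and 28.02 CPM in control and 125, 60.05 and 78.5 CPM in KI, and the libraries did not overlap, but it did not pass in edgeR (log2 fold change 1.94, SE 0.50, adjusted p = 0.107), whereas DESeq2's Wald test called it (adjusted p = 0.00076). DESeq2 also called Ptger4, a prostaglandin E2 receptor, lower (adjusted p = 0.0419). Cxcr3, a receptor for interferon-induced chemokines, was at 26.8, 34.7 and 71.3 CPM in control and 109, 152 and 98.3 CPM in KI (log2 fold change 1.43, SE 0.50, adjusted p = 0.319). Those libraries did not overlap either. S1pr1, the receptor by which lymphocytes leave tissues, had overlapping libraries and a log2 fold change of -0.77 (adjusted p = 0.324). The median log2 fold change of the list was -0.14, against -0.03 over all genes tested.

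Heavy chain genes moved in both directions. Ighm, the constant gene of IgM, was at 2706, 2639 and 2027 CPM in control and 299, 469.6 and 569.6 CPM in KI. Ighd, that of IgD, was at 210.4, 253 and 226 CPM in control and 66.8, 102 and 102 CPM in KI. Both were lower in every KI library. The difference of Ighm (log2 fold change -2.46, SE 0.17, adjusted p = 4.2e-11) and that of Ighd (log2 fold change -1.35, SE 0.18, adjusted p = 8.87e-05) passed in all 12 fits that left out 1 library. Both antigens were used to gate the cells, and IgM and IgD share a primary transcript. Igha, the constant gene of IgA, was at 354, 637 and 1085 CPM in control and 4322, 2366 and 4765 CPM in KI (log2 fold change 2.46, SE 0.39, adjusted p = 0.0294). It was higher in every KI library, but its call was lost without control 2, KI 1, B2 control 1, B2 control 2, B2 control 3, B2 KI 1, B2 KI 2 or B2 KI 3 (adjusted p 0.0588 to 0.20). Jchain, which joins IgA or IgM monomers into polymers, was at 6.75, 5.61 and 18.1 CPM in control and 153, 72.6 and 197 CPM in KI (log2 fold change 3.8, SE 0.68, adjusted p = 0.00524). The KI libraries were again all above the control libraries, and the call was lost without KI 3 (adjusted p 0.0507). The IgG genes Ighg3 (-1.21) and Ighg2c (-1.0) had lower values in every KI library and were not called (adjusted p = 0.345 and 0.328). Iglc2, a lambda light chain gene, had a log2 fold change of -0.64 (adjusted p = 0.278). Of the 12 immunoglobulin constant genes tested, 1 was called higher and 2 lower. Immunoglobulin genes together took 1.29% to 1.45% of the non-ribosomal counts in control and 1.17% to 1.77% in KI.

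The remaining plasma cell and secretion genes showed no other call, with Jchain the only one of 48 tested and a list median of 0.06. Sdc1, the plasma cell surface marker syndecan-1, was at 0.0286, 0 and 0.0905 CPM in control and 14.4, 0.0617 and 0.0655 CPM in KI. It was high in KI 1 alone, and without KI 1 its log2 fold change was 0.64. Edem1, which takes part in disposal of misfolded secretory proteins, was at 93.3, 50.5 and 44.2 CPM in control and 94.7, 112 and 184 CPM in KI (log2 fold change 1.06, SE 0.37, adjusted p = 0.319). Irf4, a transcription factor of plasma cell differentiation, was at 268, 387 and 320.1 CPM in control and 203, 216 and 243 CPM in KI (log2 fold change -0.56, SE 0.23, adjusted p = 0.366), with the opposite sign.

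Of the 17 pathway lists, B-1 cell genes had the lowest median, -1.09 over 21 genes tested, beside -0.03 over all genes. Of the 21, 3 were called lower (Ighv11-2, Il5ra and Siglecg), and none was called higher. At an unadjusted p below 0.05, 11 were lower and 0 higher, and 11 had every KI library below every control library, where 12.1% of all genes tested did not overlap in either direction. Members with such a p made up 52.4% of the list, beside 11.1% of all genes tested. In B2, where no member was called, the list median was -0.41. Of the 3, Ighv11-2 had the largest difference. It encodes a heavy chain segment typical of B-1 antibodies against phosphatidylcholine, for which Igkv14-126 is the usual light chain partner. Ighv12-3 is a second heavy chain segment of the same specificity. Igkv15-103 is a kappa V gene that is not on the list and was called higher. The first 120 bases of each V exon are shown because counting depends on how far reads can tell V genes apart. Capitals mark bases that differ from the most similar other V exon of the same locus in GENCODE M39 (GRCm39), aligned without gaps. The stretch shown of Ighv11-2 lies at chr12:114012048-114012167 and that of Ighv12-3 at chr12:114330331-114330450, both on the minus strand. That of Igkv14-126 lies at chr6:67873329-67873448 and that of Igkv15-103 at chr6:68414612-68414731, both on the plus strand.
Ighv11-2: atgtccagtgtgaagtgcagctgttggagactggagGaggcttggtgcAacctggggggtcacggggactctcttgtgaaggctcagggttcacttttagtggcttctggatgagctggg
Igkv14-126: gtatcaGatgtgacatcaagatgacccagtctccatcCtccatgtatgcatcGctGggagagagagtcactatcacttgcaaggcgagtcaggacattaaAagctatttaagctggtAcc
Ighv12-3: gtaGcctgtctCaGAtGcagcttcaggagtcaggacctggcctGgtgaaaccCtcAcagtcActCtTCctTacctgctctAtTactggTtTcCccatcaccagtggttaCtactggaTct
Igkv15-103: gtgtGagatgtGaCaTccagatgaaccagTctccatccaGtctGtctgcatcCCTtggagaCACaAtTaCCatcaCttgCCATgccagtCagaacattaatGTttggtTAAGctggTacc

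The V exon of Ighv11-2 was 98.7% identical to that of Ighv11-1, with 4 of 307 bases differing, and 48.8% of its stretches of 50 bases also occur in another V exon. No such stretch of the other 3 exons is shared, and their nearest neighbours were 90.9% (Igkv14-126), 78.2% (Ighv12-3) and 78.2% (Igkv15-103) identical. Counts of Ighv11-2 could therefore be split with Ighv11-1, which had 3, 3 and 12 counts in the control libraries and 0, 0 and 1 in the KI libraries. Ighv11-2 itself had 2953, 1710 and 836 counts in control and 38, 37 and 24 in KI, that is 84.5, 50.5 and 25.2 CPM in control and 1.304, 1.14 and 0.786 CPM in KI (log2 fold change -5.63, SE 0.81, adjusted p = 0.000215). Every KI library was below every control library, and the call passed in all 12 fits that left out 1 library. In B2 it was at 21.9, 13.3 and 9.399 CPM in control and 11.5, 9.95 and 19.02 CPM in KI. Igkv14-126 was at 14.3, 9.54 and 14.4 CPM in control and 0.446, 0.524 and 0.524 CPM in KI (log2 fold change -4.67, SE 1.34, adjusted p = 0.193). Ighv12-3 was at 83.3, 123 and 40.9 CPM in control and 1.24, 7.09 and 17.4 CPM in KI (log2 fold change -3.26, SE 0.76, adjusted p = 0.0506). Neither was called by edgeR, although their libraries did not overlap, while DESeq2's Wald test called both (adjusted p = 1.5e-05 for Igkv14-126 and 0.000788 for Ighv12-3). Igkv15-103 went the other way, at 9.67, 5.73 and 4.74 CPM in control and 76.05, 39.4 and 60.3 CPM in KI (log2 fold change 3.12, SE 0.63, adjusted p = 0.0171), and its call was lost without control 2, control 3, KI 1 or KI 3 (adjusted p 0.0602 to 0.142).

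Among the surface proteins of the B-1 list, Il5ra, the alpha chain of the interleukin 5 receptor, was at 114, 81.3 and 89.7 CPM in control and 24.1, 16.8 and 43.3 CPM in KI (log2 fold change -1.76, SE 0.38, adjusted p = 0.0294). Siglecg, a sialic acid-binding lectin that restrains BCR signalling, was at 387, 235 and 416 CPM in control and 111, 204 and 173 CPM in KI (log2 fold change -1.09, SE 0.24, adjusted p = 0.0356). Both were lower in all KI libraries. The call of Il5ra was lost without control 1, control 2, KI 1 or KI 2 (adjusted p 0.056 to 0.17), and that of Siglecg was lost without control 1, control 3, KI 1 or KI 3 (adjusted p 0.0944 to 0.304). Cd5 was at 8.78, 10.1 and 14.2 CPM in control and 0.172, 1.97 and 0.131 CPM in KI (log2 fold change -3.85, SE 1.5, adjusted p = 0.348). The tetraspanin Cd9 was at 22.7, 15.7 and 19.8 CPM in control and 0.618, 0.493 and 1.605 CPM in KI (log2 fold change -4.41, SE 1.25, adjusted p = 0.188). Their libraries were also apart, but the levels were low and neither passed in edgeR, while DESeq2's Wald test called both (adjusted p = 0.0363 for Cd5 and 9.7e-05 for Cd9). Cd5, Ctla4 and Ptpn22, which are among the 11 members lower at an unadjusted p below 0.05, are T cell genes too, and T cell markers moved with them. Their summed level was 122.6 to 334 CPM in control and 5.66 to 60.4 CPM in KI, and their part in these values and in the count of 11 was not tested. The members Bhlhe41 (-0.41), Zbtb32 (0.04), Spn (-0.45) and Itgam (0.57) had adjusted p between 0.554 and 0.988.

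**Figure D3:**
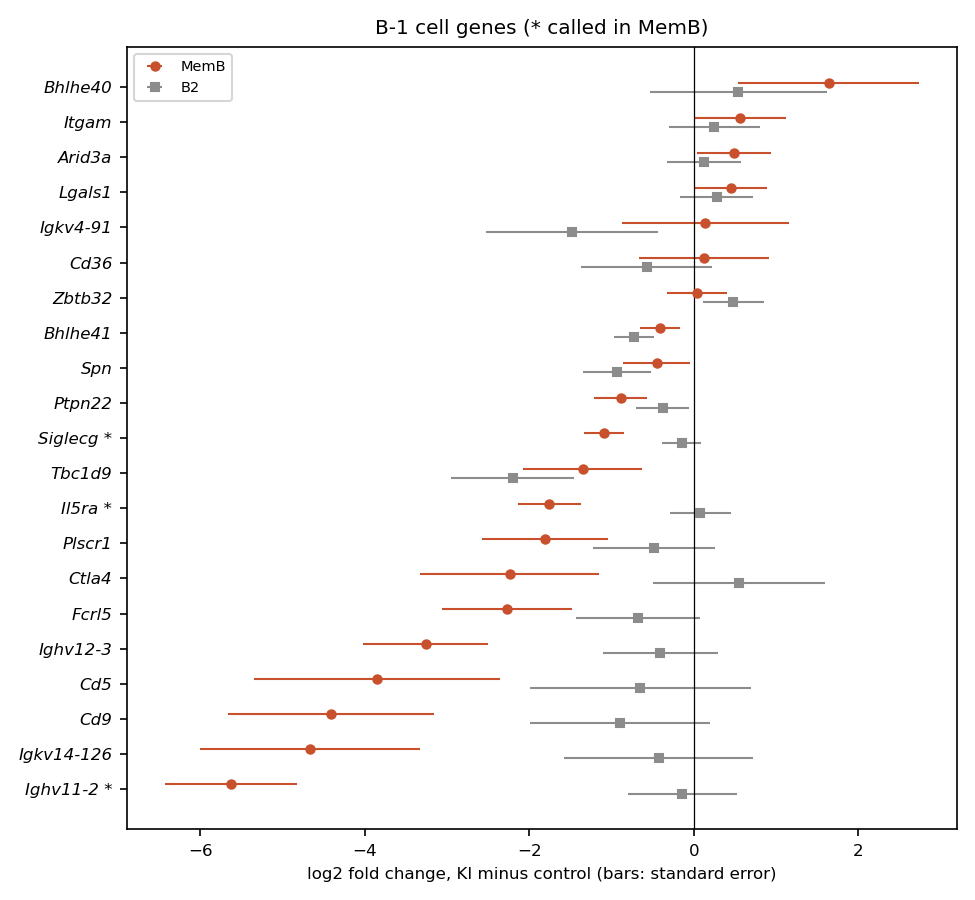
Log2 fold change of KI over control, with its standard error, for the 21 B-1 cell genes tested, in MemB (orange circles) and in B2 (grey squares), ordered by the value in MemB. The lowest points are those of Ighv11-2, Igkv14-126, Cd9 and Cd5 in MemB, while in B2 the same genes lie between -0.14 and -0.90.

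Of 60 adhesion genes tested, 2 were called, Itgb1 among them, both lower in KI. Itgb1, the beta1 integrin chain that pairs with many alpha chains to bind matrix and VCAM-1, lies at chr8:129411876-129460618 and was at 404, 337 and 250.4 CPM in control and 51.96, 129 and 126 CPM in KI (log2 fold change -1.69, SE 0.30, adjusted p = 0.00524). Its lowest control library was above its highest KI library, KI 1 had the lowest value, and the call was lost without KI 1 (adjusted p 0.0539). Itga4, the integrin alpha4 chain that pairs with beta1 or beta7, was by contrast at 1902, 1715 and 1965 CPM in control and 2552, 2474 and 2546 CPM in KI, a small difference with no overlap between groups (log2 fold change 0.44, SE 0.14, adjusted p = 0.283). Emb, embigin, a member of the immunoglobulin superfamily, was at 73.5, 73.3 and 58.2 CPM in control and 18.9, 18.9 and 7.24 CPM in KI (log2 fold change -2.19, SE 0.60, adjusted p = 0.159), and again the libraries did not overlap. Emb was called by DESeq2's Wald test (adjusted p = 0.00533). At an unadjusted p below 0.05, 4 adhesion genes were higher and 8 lower (20%, beside 11.1% of all genes tested). The list median was -0.19. The 8 include Itga1, Itga2 and Cd96, which are known from T and NK cells. Itga1 was high in control 2 alone, at 31.7 CPM, and Cd96 was at 8.13, 0.0295 and 8.78 CPM in control and at most 0.103 CPM in KI. Markers of T cells (122.6 to 334 CPM in control and 5.66 to 60.4 CPM in KI) and of NK cells (22.8 to 84.7 and 1.05 to 7.37 CPM) were also lower in KI, and their part in this count was not tested. Ezr, which links membrane proteins to actin and was on no list, was at 411, 314 and 319 CPM in control and 641, 619.6 and 609 CPM in KI (log2 fold change 0.84, adjusted p = 0.0425), higher in each KI library but below the fold needed for a call.

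Of 148 kinases and related genes tested, 1 was called in each direction. Pim1, a serine/threonine kinase induced by cytokines and NF-kB, was at 490.5, 196 and 355 CPM in control and 123, 106 and 99.3 CPM in KI (log2 fold change -1.67, SE 0.29, adjusted p = 0.00421). All KI libraries were below all control libraries, and the call was lost without control 1 (adjusted p 0.0606). Ulk4, a pseudokinase of the autophagy kinase family, was at 0.887, 0.886 and 1.39 CPM in control and 52.8, 22.6 and 32.3 CPM in KI (log2 fold change 5.09, SE 1.04, adjusted p = 0.0189). It was far above control in each KI library, and the call was lost without control 1, control 2 or KI 1 (adjusted p 0.0934 to 0.112). The gene at chr9:120784417-121106283 overlaps Ctnnb1, and the kit and counting are not stated to keep strand. In B2 it was at 0.439, 20.3 and 13.5 CPM in control and 4.18, 26.98 and 27.3 CPM in KI. There the genotypes overlapped and it was not called (log2 fold change 0.77). Irak3, a negative regulator of Toll-like receptor signalling, and Stk26 had higher values in every KI library and did not pass in edgeR (1.49 and 2.1, adjusted p = 0.227 and 0.233). Both were called by DESeq2's Wald test (adjusted p = 0.0182 for Irak3 and 0.000676 for Stk26). At an unadjusted p below 0.05, 11 kinases were higher and 12 lower (15.5%, beside 11.1% of all genes tested). The list median was -0.22. The 12 include Txk, Prkcq, Prkch and Camk4, which T cells are known to express, and Kit, the stem cell factor receptor of mast cells. Prkch was high in control 3 alone, at 21.2 CPM, as was Kit, at 37.8 CPM. Summed T cell markers were at 122.6 to 334 CPM in control and 5.66 to 60.4 CPM in KI, mast cell markers were highest in control 3 at 255 CPM, and their part in this count was not tested.

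Phosphatases and inhibitory receptors numbered 48, of which Siglecg alone was called and 3 were higher and 8 lower at an unadjusted p below 0.05. Members with such a p made up 22.9% of the list, beside 11.1% of all genes tested. The 8 include Cd5, Ctla4 and Ptpn22, which T cells express. Ctla4 was at 51.6, 41.7 and 0.965 CPM in control and 7.58, 8.45 and 3.93 CPM in KI. Summed T cell markers were at 122.6 to 334 CPM in control and 5.66 to 60.4 CPM in KI, and their part in this count was not tested. Ptprj, the receptor phosphatase CD148, was at 390.4, 297 and 303 CPM in control and 113, 191 and 186 CPM in KI (log2 fold change -1.02, SE 0.24, adjusted p = 0.0611). Ptpn7 was at 22.97, 24.99 and 34.1 CPM in control and 93.8, 62.9 and 87.02 CPM in KI (log2 fold change 1.57, SE 0.50, adjusted p = 0.27). Both sets of libraries were apart, in opposite directions, and DESeq2's Wald test called both (adjusted p = 0.0256 for Ptprj and 0.0253 for Ptpn7). The Fc receptor-like gene Fcrl5 ranged widely in both groups, at 142, 69.4 and 28.6 CPM in control and 12.8, 34.8 and 2.03 CPM in KI (log2 fold change -2.28, SE 0.79, adjusted p = 0.319).

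None of the 50 genes of BCR and coreceptor signalling was called, by edgeR, while 7 were higher and 1 lower at an unadjusted p below 0.05. Members with such a p made up 16% of the list, beside 11.1% of all genes tested. Themis2 was at 122, 163 and 166 CPM in control and 296, 235 and 244 CPM in KI (log2 fold change 0.78, SE 0.29, adjusted p = 0.339). Cr2, the complement receptor CD21 whose promoter drives the Cre, was at 44.8, 50.8 and 38.3 CPM in control and 56.6, 98.1 and 89.9 CPM in KI (log2 fold change 0.87, SE 0.34, adjusted p = 0.348). Sos2, an activator of Ras, was high only in KI 1, at 30.1, 49.4 and 33.4 CPM in control and 205, 42.6 and 25.8 CPM in KI (log2 fold change 1.28, SE 0.55, adjusted p = 0.374). Nfatc1, a calcium-regulated factor, had a log2 fold change of -0.69 (adjusted p = 0.363). Among 73 genes of G protein signalling the only call was Arhgef11, an exchange factor that activates RhoA downstream of G protein-coupled receptors. It was at 35.4, 37.4 and 33.9 CPM in control and 3.29, 3.64 and 5.76 CPM in KI (log2 fold change -3.07, SE 0.69, adjusted p = 0.0376). The groups were far apart, yet the call was lost without control 1, control 2, control 3, KI 1, KI 2, KI 3, B2 control 2, B2 KI 1 or B2 KI 2 (adjusted p 0.0504 to 0.216). Dock10, an activator of Cdc42 and Rac, was at 289, 219 and 359.9 CPM in control and 434, 622 and 486 CPM in KI (log2 fold change 0.83, SE 0.21, adjusted p = 0.101) and did not pass.

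Tnfrsf13c, the BAFF receptor that B2 need for survival, was the only call among 40 survival and death genes. It was at 421, 349 and 495 CPM in control and 1074, 809 and 697 CPM in KI (log2 fold change 1.03, SE 0.19, adjusted p = 0.00704), above control in every KI library, and the call was lost without control 2 or KI 1 (adjusted p 0.0851 to 0.112). Cflar, an inhibitor of caspase-8 (1.08), Casp2 (-1.13) and Casp6 (2.98) had adjusted p between 0.306 and 0.344. Of these, DESeq2's Wald test called Casp6 alone (adjusted p = 0.038). Casp6 was at 0.858, 3.46 and 1.9 CPM in control and 4.32, 39.6 and 5.11 CPM in KI, high mainly in KI 2, and without KI 2 its log2 fold change was 1.19. Among 39 immediate early and NF-kB genes, Pim1 was the only call. Cd69, an early activation antigen, was at 55.7, 83.8 and 91.9 CPM in control and 197, 181 and 148 CPM in KI (log2 fold change 1.18, SE 0.28, adjusted p = 0.0539), apart but not past the threshold. Egr3 was at 80.1, 13.3 and 20.5 CPM in control and 0.892, 6.32 and 9.14 CPM in KI (log2 fold change -2.8, SE 0.83, adjusted p = 0.217). With single libraries left out its log2 fold change ran from -3.39 to -1.64. Irf8 had a log2 fold change of 0.95 (adjusted p = 0.278). Cd69 and Egr3 were called by DESeq2's Wald test (adjusted p = 0.0127 and 0.0136).

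Of 24 naive follicular genes tested, 3 were called lower, Ighm and Ighd among them, whereas Fcer2a, the low-affinity IgE receptor CD23, was at 67.4, 27.1 and 70.2 CPM in control and 77.2, 152 and 136 CPM in KI (log2 fold change 1.15, SE 0.30, adjusted p = 0.115). The list median was -0.15, beside -0.03 over all genes. Of 31 memory B cell genes, Myb alone was called. This transcription factor was at 70.8, 39.9 and 36.6 CPM in control and 5.46, 2.41 and 0.884 CPM in KI (log2 fold change -4.07, SE 0.78, adjusted p = 0.00916), with every KI library lower, and the call was lost without control 1 or KI 3 (adjusted p 0.058 to 0.0746). Zbtb20, a zinc finger protein of memory and plasma cells, was at 960.3, 810.4 and 836 CPM in control and 359, 545 and 445 CPM in KI (log2 fold change -0.95, adjusted p = 0.0294). Ski, a repressor of TGF-beta signalling, had a log2 fold change of -1.36 (adjusted p = 0.233). Fcer2a and Ski were called by DESeq2's Wald test (adjusted p = 0.0418 and 0.0195).

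Ion channels gave 1 call in each direction among 48 tested. Panx1, which forms a channel that releases ATP, was at 8.27, 6.06 and 12.3 CPM in control and 45.3, 30.3 and 122 CPM in KI (log2 fold change 2.89, SE 0.60, adjusted p = 0.020). KI 3 was highest, and the call was lost without control 1, control 2 or KI 3 (adjusted p 0.0919 to 0.316). Scn4a, a voltage-gated sodium channel best known from muscle, was at 43.5, 9.95 and 18.6 CPM in control and 0.343, 0.7402 and 0.3603 CPM in KI (log2 fold change -5.63, SE 1.07, adjusted p = 0.00916), and the call was lost without control 1, KI 1 or KI 3 (adjusted p 0.0587 to 0.0934). Kcna3, the potassium channel Kv1.3 of activated lymphocytes, was at 0.772, 0.561 and 0.271 CPM in control and 1.44, 14.2 and 40.5 CPM in KI and did not pass (adjusted p = 0.189). Hvcn1, a proton channel of B cells, had a log2 fold change of 0.77 (adjusted p = 0.309). Kcna3 was called by DESeq2's Wald test (adjusted p = 0.000758).

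**Figure D4:**
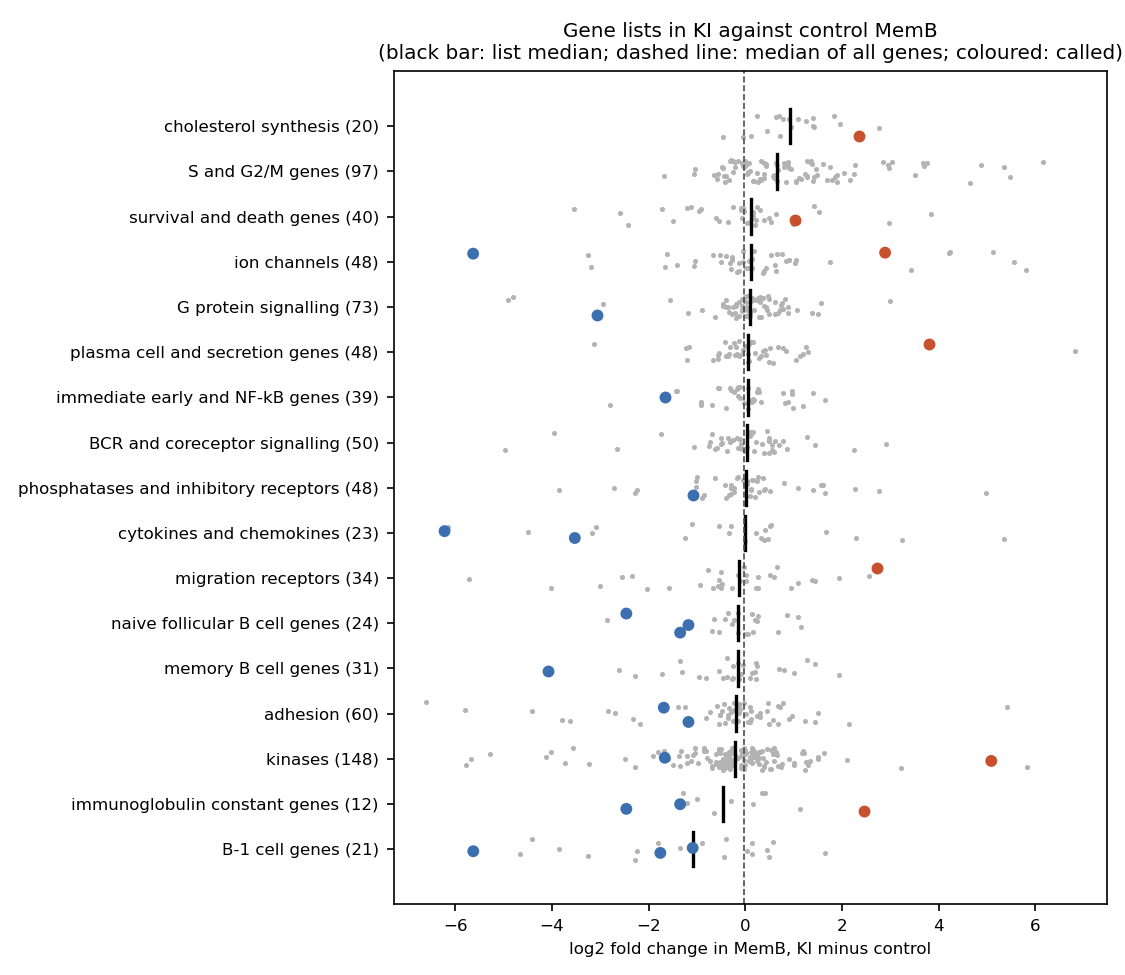
Log2 fold change in KI over control MemB of every tested member of the 17 pathway lists (number tested in parentheses), with called members coloured, list medians as black bars and the median of all genes, -0.03, as a dashed line. Of these lists B-1 cell genes have the lowest median, -1.09, and cholesterol synthesis the highest, 0.93.

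Several called genes stood on no list. Dnase1l3, a secreted DNase that digests chromatin released from dying cells, was at 272, 157 and 113 CPM in control and 5.73, 11.9 and 16.2 CPM in KI (log2 fold change -4.0, SE 0.50, adjusted p = 3.09e-05). The highest KI library was well below the lowest control library, and the call passed in all 12 fits that left out 1 library. Fcmr, the Fc receptor for IgM, was at 317, 244 and 229 CPM in control and 87.9, 110.04 and 154 CPM in KI (log2 fold change -1.17, SE 0.25, adjusted p = 0.0263), a call that was lost without control 1, control 2, KI 1 or KI 2 (adjusted p 0.0662 to 0.228). Mxd4, a repressor that competes with MYC for its partner MAX, was at 104, 116 and 106 CPM in control and 22.3, 39.5 and 18.8 CPM in KI (log2 fold change -2.02, SE 0.39, adjusted p = 0.00936) and its call was lost without KI 1 or KI 3 (adjusted p 0.0751 to 0.0915). Chd1, a chromatin remodeller, was at 338, 399 and 339.7 CPM in control and 129, 186 and 141 CPM in KI (log2 fold change -1.24, SE 0.24, adjusted p = 0.0114), and the call was lost without control 2, KI 1 or KI 3 (adjusted p 0.0751 to 0.124). Lmo7, a LIM domain protein of cell junctions, was at 79.3, 33.3 and 66.7 CPM in control and 3.19, 8.48 and 11.95 CPM in KI (log2 fold change -2.92, SE 0.53, adjusted p = 0.0060), and its call was lost without KI 1 (adjusted p 0.0539). In each of these 5 genes every KI library lay below every control library.

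Other genes called lower on no list, whose libraries were also apart, included Zdhhc17, a palmitoyltransferase (log2 fold change -2.24), Gbp7, an interferon-induced GTPase (-1.91), Twsg1, a modulator of BMP ligands (-1.7), Pde2a, a cyclic nucleotide phosphodiesterase (-3.57), Niban3 (-3.74), Ptpn14, a tyrosine phosphatase (-5.58), Tmem151b (-6.26) and the long non-coding RNAs Mirt1 (-3.38) and Gm6297 (-5.91). The adjusted p of these 9 ran from 0.00599 (Gm6297) to 0.0485 (Mirt1). Tmem151b was at 19.3, 24.3 and 33.9 CPM in control and 0.137, 0.401 and 0.459 CPM in KI, and Ptpn14 was at 21.3, 30.1 and 15.8 CPM in control and 0.412, 0.555 and 0.426 CPM in KI. Each of the 9 calls was lost without at least 1 library, Gm6297 only without control 2 (adjusted p 0.0809), and the other 8 without 4 to 6 libraries each.

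Genes called higher on no list were Cpm, Laptm5, Aspm and Gm20537, beside Igkv15-103. Cpm, a membrane carboxypeptidase that trims peptides, was at 55.8, 106 and 150.3 CPM in control and 239.97, 305 and 314 CPM in KI (log2 fold change 1.46, SE 0.30, adjusted p = 0.020), and the call was lost without control 1, control 2, KI 2 or KI 3 (adjusted p 0.0621 to 0.156). Laptm5, a lysosomal protein that promotes the turnover of antigen receptors, was at 174, 115 and 167 CPM in control and 361, 312 and 373 CPM in KI (log2 fold change 1.2, SE 0.24, adjusted p = 0.0171), and the call was lost without control 2, KI 1 or KI 3 (adjusted p 0.0751 to 0.136). In both genes all KI libraries were above all control libraries. Gm20537 overlaps Syncrip and Snx14, had at most 2 counts in any control library, and was at 0, 0.0295 and 0.0603 CPM in control and 25.9, 0.493 and 24.9 CPM in KI. Taking 3 counts in each control library as a floor, the KI mean was at least 194-fold higher (adjusted p = 0.022), and the call was lost without control 1, control 2, control 3, KI 1 or KI 3 (adjusted p 0.0507 to 0.127). Of all 42 called genes, 25 overlap another annotated gene, and the counting is not stated to use strand. The share of overlapping genes among all genes tested was not counted, so overlap is not shown to be particular to the called genes.

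Aspm, which organizes the mitotic spindle and is not among the 97 S and G2/M genes tested, was at 14.1, 17.5 and 19.2 CPM in control and 142, 68.3 and 84.3 CPM in KI (log2 fold change 2.54, SE 0.53, adjusted p = 0.0206), and the call was lost without control 1, control 2 or KI 1 (adjusted p 0.0889 to 0.186). None of the 97 was called, by edgeR, 16 were higher and 0 lower at an unadjusted p below 0.05, and the median of the 97 was 0.66. Members with such a p made up 16.5% of the list, beside 11.1% of all genes tested. Hmgcs1, the synthase that makes HMG-CoA at the start of cholesterol synthesis, was at 51.2, 21.1 and 23.1 CPM in control and 195, 184 and 107 CPM in KI (log2 fold change 2.35, SE 0.40, adjusted p = 0.00421) and passed in all 12 fits that left out 1 library. It was the only call among the 20 genes of that pathway.

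Genes best known from other cell types were among those called lower. Nkg7, a granule protein of NK and cytotoxic T cells, was at 45.9, 18.5 and 2.87 CPM in control and 0.172, 0.278 and 0.295 CPM in KI (log2 fold change -6.48, SE 1.46, adjusted p = 0.0376). Ccl5, a chemokine those cells make, was at 50.5, 119.98 and 34.4 CPM in control and 4.701, 3.86 and 9.203 CPM in KI (log2 fold change -3.53, SE 0.76, adjusted p = 0.0294). Both were lower in every KI library. The call of Nkg7 was lost without control 1, control 2, KI 1, KI 2 or KI 3 (adjusted p 0.0889 to 0.296), and that of Ccl5 was lost without control 2, KI 1 or KI 2 (adjusted p 0.125 to 0.265). Beside them, 9 of 12 T cell markers were lower at an unadjusted p below 0.05, though 0 were called. Their summed level was 122.6, 334 and 205 CPM in control and 5.66, 32.6 and 60.4 CPM in KI. That of 9 NK and cytotoxic markers in the table was 48.3, 84.7 and 22.8 CPM in control and 6.90, 1.05 and 7.37 CPM in KI. Their part in the differences of Ccl5 and Nkg7 was not tested.

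Cma1, a mast cell chymase, was at 36.8, 0.797 and 119 CPM in control and 0.652, 0.802 and 0.393 CPM in KI (log2 fold change -6.4, SE 1.41, adjusted p = 0.0376), and control 2 lay within the range of the KI libraries. Its call was lost without control 1, control 3, KI 1, KI 2, KI 3, B2 control 1, B2 control 2 or B2 control 3 (adjusted p 0.0736 to 0.321). The summed level of 8 mast cell markers was 45.6, 1.54 and 255 CPM in control and 1.89, 1.79 and 0.884 CPM in KI. Kit, which is on that list, was at 0.315, 0.118 and 37.8 CPM in control and 0.2402, 0.401 and 0.0983 CPM in KI. Ccl22, a chemokine of dendritic cells and activated B cells, was at 6.38, 1.06 and 90.6 CPM in control and 0.515, 0.493 and 0.295 CPM in KI (log2 fold change -6.22, SE 1.41, adjusted p = 0.039). It was high in control 3 alone, and its call was lost without control 3, KI 1, KI 2 or KI 3 (adjusted p 0.126 to 0.571). Without control 3 its log2 fold change was -3.09. The 9 dendritic cell markers, Ccl22 among them, summed to 18.9, 21.98 and 155 CPM in control and 69.7, 93.4 and 67.1 CPM in KI. Most of the KI sums came from Flt3 (27.5, 16.8 and 46.4 CPM), Ccr9 (29.96, 38.2 and 5.86 CPM) and Zbtb46 (11.6, 37.7 and 14.5 CPM). In KI, Xcr1, Clec9a and Ccl17 were at 0, so the sum does not show dendritic cells there. In control, Flt3 was at 10.7, 12.8 and 48 CPM. Macrophage markers summed to 11.5 to 24.9 CPM in control and 1.42 to 12.9 CPM in KI, with Gata6, Mertk, C1qa, C1qc, Marco, Fcgr1 and Cd14 at 0 in all 6 libraries. Granulocyte markers stayed at or below 1.88 CPM and mesothelial and stromal markers at or below 4.29 CPM. Erythroid and platelet markers reached 5.21 CPM, in KI 3. Other cytokines differed without passing, among them Lta at 1.77, 2.304 and 0.995 CPM in control and 23.4, 17.7 and 6.98 CPM in KI (adjusted p = 0.232) and Tnfsf10 with a log2 fold change of 5.35 (adjusted p = 0.251). Lta was called by DESeq2's Wald test (adjusted p = 0.00102).

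**Figure D5:**
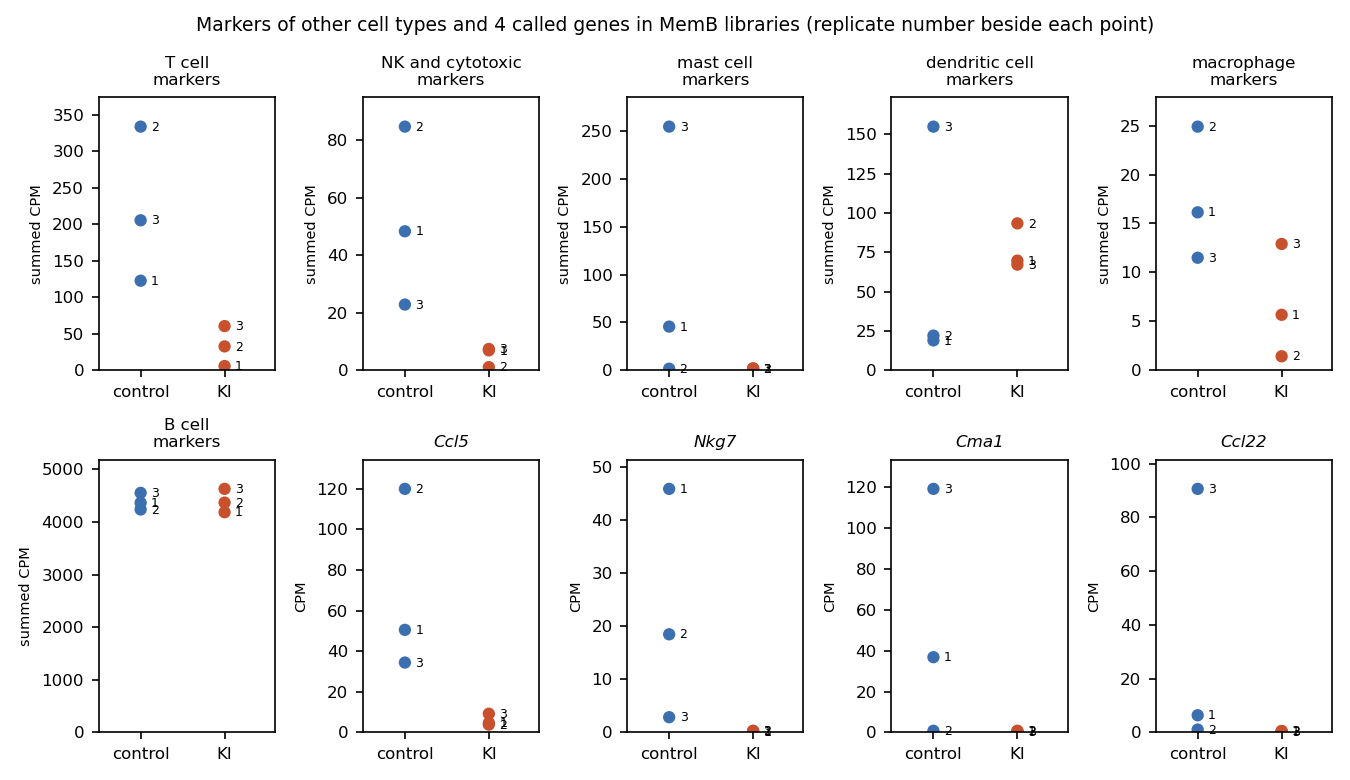
Summed CPM of marker lists of 6 cell types, and CPM of 4 called genes, in the 3 control (blue) and 3 KI (orange) MemB libraries, with the replicate number beside each point and axes that start at 0. T cell and NK markers are higher in all 3 control libraries, mast cell markers and Cma1 are high in control 3 and control 1, and B cell markers are level.

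RNA composition differed between the groups as well. Mitochondrial mRNA made up 5.75% to 6.70% of non-ribosomal counts in control and 4.48% to 5.69% in KI, and Malat1, a nuclear RNA, 1.09% to 1.23% and 0.654% to 0.907%. Neither pair of ranges overlapped, and their part in the calls was not tested. Malat1 was at 8021, 8853 and 7311 CPM in control and 4547, 6076 and 5787 CPM in KI (log2 fold change -0.56, adjusted p = 0.0356).

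In B2, Gpr34 was the only gene of the 42 with an adjusted p below 0.05 (log2 fold change 4.42, adjusted p = 1.28e-07). Of the 42, 30 had the same sign in B2 as in MemB, 7 of the 12 higher and 23 of the 30 lower. The share with the same sign over all genes tested was not counted, so these counts have no background to be read against. Whether the KI effect itself differed between the cell types was tested with an interaction term, which called 10 of the 14933 genes (0.067%). With single libraries left out it called between 5 and 10, fewest without B2 control 2. No such fit kept all 10 of the genes. The fewest kept were 4, without control 1, and the most were 8, without KI 2 or B2 KI 2. The labels do not say whether MemB and B2 libraries of a genotype with the same number came from the same mouse, and the test treated them as independent. With such libraries as a block it again called 10 genes, 7 of them shared, and Jchain, Myb and Cma1 were lost. The difference in log2 fold change was -2.05 for Ighm (SE 0.24, adjusted p = 9.77e-06) and -1.23 for Ighd (SE 0.25, adjusted p = 0.0442). It was -3.69 for Dnase1l3 (SE 0.65, adjusted p = 0.00964) and -5.49 for Ighv11-2 (SE 1.00, adjusted p = 0.0147). Jchain had a larger value in MemB, by 4.42 (SE 0.90, adjusted p = 0.0442), and Myb a difference of -5.04 (SE 1.02, adjusted p = 0.0442). The others were Cma1, Gm6297, Gm20537 and Gm37376, which lies inside Malat1. In B2, Ighm was at 4366, 4100.1 and 4274 CPM in control and 2925, 2999 and 3621 CPM in KI. There Dnase1l3 was at 77.2, 116 and 29.7 CPM in control and 47.5, 42.9 and 89.9 CPM in KI, and Jchain was at 11.4, 1.96 and 1.63 CPM in control and 2.51, 3.57 and 3.58 CPM in KI. Ranges of Dnase1l3 and Jchain overlapped between genotypes there, while all KI values of Ighm were below all control values. Myb in B2 was at 11.4, 7.06 and 15.6 CPM in control and 23.4, 12.7 and 30.6 CPM in KI, so the genotypes overlapped. For Itgb1 (interaction adjusted p = 0.366), Pim1 (0.291), Ulk4 (0.325), Il5ra (0.31), Siglecg (0.415) and Tnfrsf13c (0.827) the effects were not shown to differ between MemB and B2.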

How the data were processed

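RNA from sorted peritoneal cells was amplified with the Ovation RNA-seq System V2 kit and sequenced as paired-end reads. The submitters' processing notes name FastQC 0.12.1, cutadapt 4.5, STAR 2.7.11a and RSEM 1.3.3 with build mm39, and the authors deposited 1 table of raw expected counts from RSEM, with genes in rows and the 12 libraries in columns, which were matched by name. RSEM shares reads between similar genes, and strand was not given for the counting, so V genes and overlapping genes are uncertain. Expected counts were rounded. Rows without a gene symbol (813, holding 0.605% to 0.689% of the counts of a library) were left out.

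Genes were tested with edgeR 4.0.16 in R 4.3.3 by robust quasi-likelihood fits in 1 model of 12 libraries and 4 group means, with TMM factors, filterByExpr at a minimum count of 10 and p-values adjusted by Benjamini-Hochberg (14933 genes). Limits for a call were 0.05 for the adjusted p and -1 and 1 for the log2 fold change. SE is the log2 fold change divided by the square root of F. A group with at most 3 counts in each library was treated as at the floor. Totals of all 12 libraries were 29895068 to 39732124 counts. The labels name biological replicates without saying that each is 1 mouse, and p-values rest on the spread within groups pooled over the 12 libraries. Same-numbered libraries, KI with control MemB and MemB with B2 of a genotype, were checked for pairing by the correlation of their deviations from group means and were treated as not paired.

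The genes named were every called gene except 2 that are not reported here, Gpr34, and the members of each of the 17 pathway lists that were called or had the smallest p, up to 4 a list. Other members that are named were chosen after their values were seen. The members and lists were chosen with earlier results of these data known, and lists are described by counts and medians with no set test. Alternatives were other factors and filters, DESeq2 1.42.0, fits that were not robust, of MemB alone, without ribosomal or immunoglobulin genes, with a replicate block, and without single libraries. The edgeR step was tested on simulated counts. Coordinates and sequences are from GENCODE M39 and the GRCm39 genome.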

Additional observations from a re-analysis of the deposited data

Results flagged for a closer look

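By edgeR's interaction test, 10 genes had a KI-to-control difference in MemB that was not the same as in B2. The difference in log2 fold change, MemB minus B2, was 4.42 for Jchain, -2.05 for Ighm, -5.04 for Myb, -5.49 for Ighv11-2, -9.45 for Cma1, -1.03 for Gm37376, -1.23 for Ighd, -3.69 for Dnase1l3 and -8.14 for Gm6297. For Gm20537 the fitted difference was 15.7, which depends on the prior count, since control MemB held at most 2 counts of it. For Cma1, 1 control MemB library was within the KI range, and among the B2 libraries KI 3 alone was above 1 CPM, at 15.9 CPM. Gm20537 and Gm6297 went in opposite directions in the 2 cell types. In B2, Gm20537 was lower in every KI library, at 2.67, 3.95 and 12.7 CPM in control and 0, 0.123 and 0.0515 CPM in KI, and Gm6297 was higher in every KI library, at 0.71, 3.78 and 0.77 CPM in control and 9.27, 7.84 and 7.72 CPM in KI, with neither called in B2 alone (adjusted p = 0.837 for each). Cxcr3 and Casp6 were higher in every KI library of MemB and lower in every KI library of B2, with differences of 2.88 and 3.96, and Casp6 was high mainly in KI 2 of MemB, but the interaction test did not call them (adjusted p = 0.184 and 0.459).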

How the results depend on the processing

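All 42 called genes kept their sign under every alternative in which they were tested. The numbers called were 12 higher, 30 lower and 10 for the interaction. Under 13 alternatives other than leaving out single libraries, they stayed within 1.5 times in 8, 8 and 7. With no filter on low counts the numbers were 33, 56 and 41. DESeq2's Wald test gave 200, 271 and 203. Fits that were not robust gave 6, 15 and 4. A fit of the 6 MemB libraries alone gave 5 higher and 7 lower and kept 12 of the 42 calls. Without replicate 3 of all groups there were 6 higher and 17 lower. Upper-quartile factors gave 6 calls for the interaction, and 3 were left when immunoglobulin genes were left out, which itself removes only part of those lost, as 7 of the 10 were still tested. The cause of these changes was not tested. With single libraries left out, the numbers ran from 3 to 15 higher, from 8 to 36 lower and from 5 to 10 for the interaction. Sos2, which was not called, had a log2 fold change from -0.133 to 1.71 in these fits, reversed without KI MemB replicate 1. With unnamed entries kept in the fit, an alternative chosen after seeing the data, 12 genes were higher and 31 lower. With the replicate block there were 13 higher and 23 lower, and 6 for the interaction. It kept 33 of the 42 calls, the 12 higher and 21 of the 30 lower. Same-numbered KI and control MemB libraries deviated from their group means with correlations of -0.0142, 0.0256 and 0.0145, and not every library correlated best with its own number. By Xist, replicates 3 also differ from replicates 1 and 2 in sex, so same-numbered libraries share sex as well as a number. For same-numbered MemB and B2 libraries the correlations were 0.00169 to 0.0334, and a replicate block within genotype, also chosen after seeing the data, gave 10 calls for the interaction and kept 7. At 3 libraries a group and a biological coefficient of variation of 91.3%, differences of low genes may have been hard to detect. Reads were amplified without molecular identifiers, so a count of reads is not a count of molecules.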
